A study of Homo sapiens with 15 samples.

Results

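XRN1, CD2AP, CENPQ, STXBP5 and CNTNAP2 were the protein-coding genes outside the zinc finger families that carried MPP8 ChIP-seq peaks both in K-562 cells without TASOR and in K-562 cells without TASOR2. They were chosen by the peaks themselves: the RefSeq gene body on hg38 had to overlap a peak of each deposited list by 1 bp or more, so the presence of peaks in them is not a finding. They numbered 5 of 19353 protein-coding genes outside these families (0.0258%). Of all 20037 annotated protein-coding genes, 31 met the rule, and the other 26 belonged to zinc finger families.

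K-562 cells are a human leukaemia line, and the groups compared were K-562 TASOR KO and K-562 TASOR2 KO, each precipitated with an antibody to MPP8 and represented by 1 library. Per the labels' protocols both knockouts were clonal populations grown from single sorted cells after CRISPR/Cas9 editing, so a feature of the clone cannot be told apart from the genotype. The series has 15 samples, and the other 13, among them MPP8 ChIP in unedited cells and in MPP8 KO cells, were not used here. No test between genotypes was possible, and the values below describe 2 lists, with 427 TASOR KO and 264 TASOR2 KO peaks.

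MPP8 is a chromodomain protein that reads methylated histone H3 lysine 9. With the scaffold TASOR and with periphilin it forms the human silencing hub (HUSH), a complex known for repressing LINE-1 retrotransposons and other foreign DNA, also where these lie inside transcribed genes. TASOR2 is a paralog of TASOR. A peak within a gene can thus lie at the promoter, in an exon or in an intron that carries a repeat. Exons and repeats were not annotated in the sources used here, so positions are given relative to the transcription start and the transcript end.

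The members fell into 2 patterns. In XRN1, CENPQ and STXBP5 the TASOR KO peak covered the transcription start and every TASOR2 KO peak lay further inside the gene. In CD2AP and CNTNAP2 the peaks of both lists lay inside the gene, away from the start. In all 5 genes the nearest TASOR KO peak was closer to the start than the nearest TASOR2 KO peak, and no TASOR KO peak overlapped a TASOR2 KO peak. Support was weak by the authors' q value, which is based on false discovery rates. The lists were read as broad peaks, where this value stands for a whole region, so stronger positions within a peak are not seen. In these genes 2 of the 13 TASOR KO peaks and 0 of the 7 TASOR2 KO peaks had a q of 0.05 or less, so with peaks of that strength in both lists 0 genes outside the zinc finger families remained. The lists also stop at different q values: the TASOR KO list reaches a q of 0.460, against 0.258 for the TASOR2 KO list. Peak names carry the tag bc0.5 in the first list and bc0.3 in the other, with no meaning stated. The largest q of each list lies below the number in its tag. At a common q limit of 0.258 for both lists 266 TASOR KO peaks were left, and XRN1, CENPQ and CNTNAP2 were the 3 genes with peaks of both lists.

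**Figure D1:**
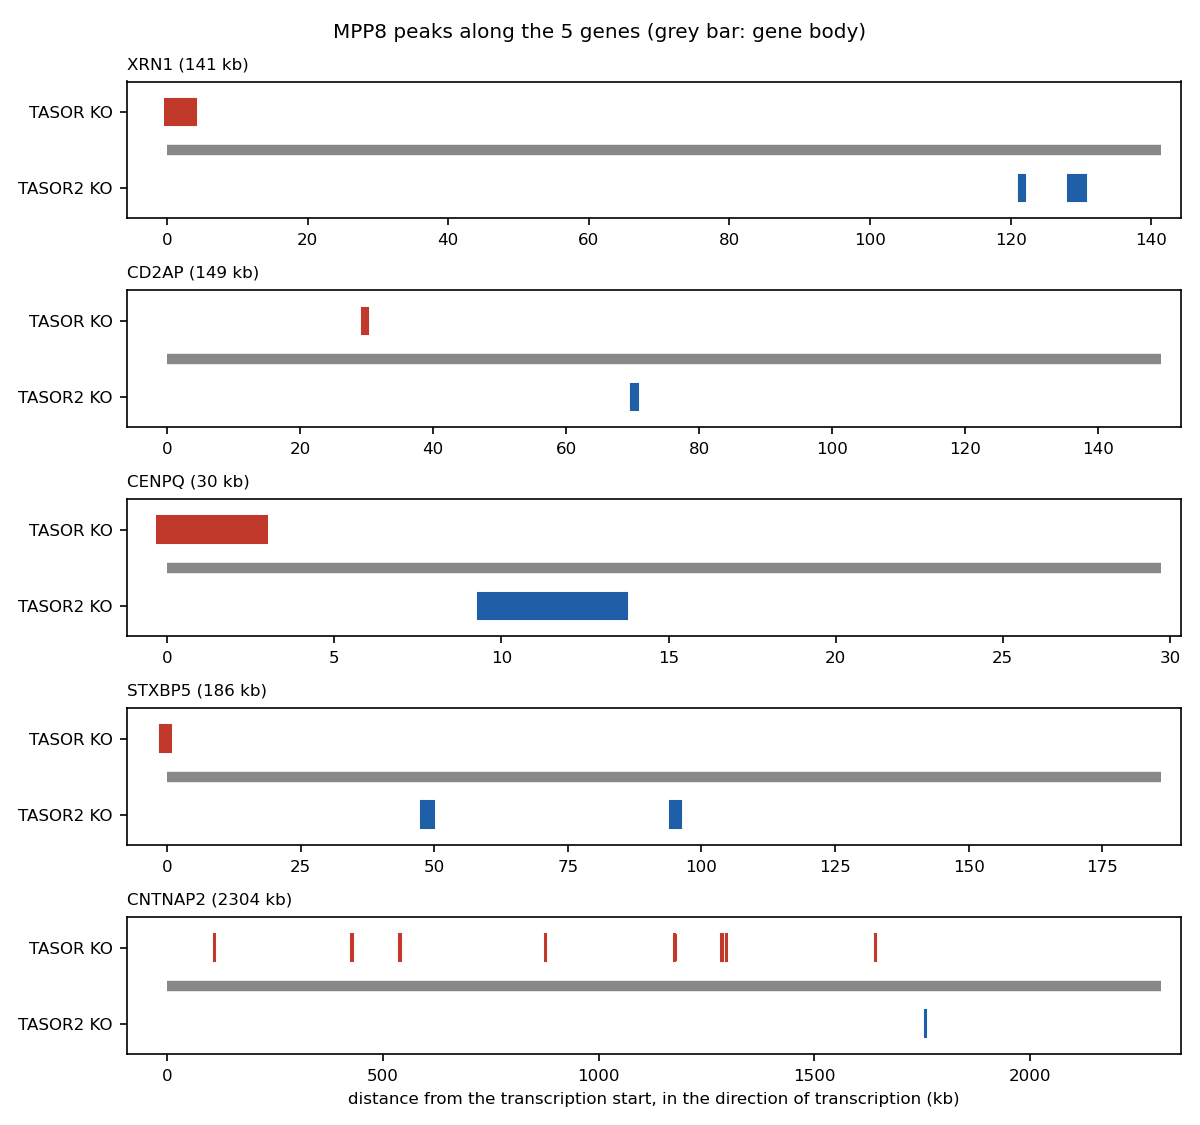
Peaks along each gene, with the TASOR KO list above and the TASOR2 KO list below the grey gene body. The horizontal axis is the distance from the transcription start in kb, to scale within each gene, with a minimum line width so that the peaks of CNTNAP2 stay visible. TASOR KO peaks cover the start of XRN1, CENPQ and STXBP5, and all 7 TASOR2 KO peaks lie inside the genes.

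XRN1 encodes an exoribonuclease that degrades decapped mRNA in the cytoplasm. The gene (gene ID 54464) spans chr3:142306610-142448037 on the minus strand, 141 kb. Its TASOR KO peak, chr3:142443879-142448394, was 4516 bp wide, with a fold enrichment of 4.17 and a −log10 q of 2.93, which placed it at rank 55 of 427. It reached 357 bp upstream of the start and 4159 bp into the gene. The TASOR2 KO list held 2 peaks near the other end of XRN1. The stronger, chr3:142317275-142319846, was 2572 bp wide (fold 4.06, −log10 q 1.11, rank 122 of 264) and was centred at 91.5% of the gene's length from the start. The weaker, chr3:142325994-142326799, was 806 bp wide (fold 3.56, −log10 q 0.63, rank 254) and was centred at 86.0%. The gap between the nearest edges of the 2 lists was 117 kb, or 82.8% of the gene.

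A TASOR2 KO peak outside XRN1 was closer to its TASOR KO peak than those inside. It lay 28.1 kb before the XRN1 start, within ATR, which encodes a kinase of the DNA damage checkpoint, and was 2279 bp wide (fold 3.8, rank 200). Counting it, the gap between the lists at XRN1 was 27.7 kb.

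CENPQ encodes a subunit of the constitutive centromere-associated network, the protein layer on which the kinetochore is built. The gene (gene ID 55166) spans chr6:49463370-49493107 on the plus strand and was the shortest member, at 29.7 kb. It carried the strongest TASOR KO peak of the set, at chr6:49463070-49466360, with a width of 3291 bp, a fold of 5.26, a −log10 q of 5.79 and rank 11 of 427. That peak also covered the start of MMUT, which encodes the mitochondrial enzyme methylmalonyl-CoA mutase and is transcribed in the opposite direction from a start 117 bp away, so the peak cannot be assigned to either gene. The TASOR2 KO peak, chr6:49472680-49477116, was 4437 bp wide, with a fold of 3.95, a −log10 q of 1.06 and rank 135 of 264. It began 9.31 kb from the CENPQ start. The gap of 6.32 kb between the lists was the smallest among the members.

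STXBP5 encodes tomosyn, a protein that binds syntaxin and restrains vesicle fusion. The gene (gene ID 134957) spans chr6:147204417-147390473 on the plus strand, 186 kb. Its TASOR KO peak, chr6:147203146-147205173, was weak (2028 bp, fold 2.93, −log10 q 0.44, rank 333) and lay mostly upstream, with 1271 bp before the start and 757 bp in the gene. The same peak overlapped the noncoding genes STXBP5-AS1 and LOC124901422. The TASOR2 KO list held 2 peaks inside STXBP5. One, chr6:147298573-147300625, had a width of 2053 bp, a fold of 3.97, a −log10 q of 1.10 and rank 124, and was centred at 51.2% of the gene's length. The other, chr6:147251954-147254385, had a width of 2432 bp, a fold of 3.51, a −log10 q of 0.70 and rank 237, and was centred at 26.2%. It was 46.8 kb from the TASOR KO peak. Another TASOR KO peak lay 139 kb before the start, in STXBP5-AS1 (702 bp, rank 401).

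The DNA just before the starts that TASOR KO peaks covered is shown here, since these starts separate the 2 lists. The bases come from RefSeq (GRCh38.p14) and are written 5′ to 3′ on the strand of the gene, and capitals mark CG dinucleotides, the sites of CpG methylation. For XRN1 the 250 bases before the start are chr3:142448038-142448287, minus strand. For CENPQ the 116 bases between its start and that of MMUT are chr6:49463254-49463369, plus strand. For STXBP5 the 250 bases before the start are chr6:147204167-147204416, plus strand. Each stretch lay wholly within the TASOR KO peak.
XRN1: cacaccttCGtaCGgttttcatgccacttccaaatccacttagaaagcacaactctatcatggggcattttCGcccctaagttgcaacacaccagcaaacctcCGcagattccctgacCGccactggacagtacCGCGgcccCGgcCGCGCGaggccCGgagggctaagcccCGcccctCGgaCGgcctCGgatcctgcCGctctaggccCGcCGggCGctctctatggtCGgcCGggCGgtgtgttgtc
CENPQ: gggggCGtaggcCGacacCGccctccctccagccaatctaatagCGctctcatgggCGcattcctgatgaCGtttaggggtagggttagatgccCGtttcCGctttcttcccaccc
STXBP5: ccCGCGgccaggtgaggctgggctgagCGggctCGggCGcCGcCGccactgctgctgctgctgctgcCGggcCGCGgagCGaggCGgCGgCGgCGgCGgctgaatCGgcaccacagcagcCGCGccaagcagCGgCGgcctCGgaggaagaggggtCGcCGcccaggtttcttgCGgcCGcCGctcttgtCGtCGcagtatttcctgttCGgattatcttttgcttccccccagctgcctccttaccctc

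These stretches held 23, 8 and 30 CG dinucleotides in XRN1, CENPQ and STXBP5, and their G and C content was 63.6%, 60.3% and 71.6%. Over the 250 bases before each of 15842 protein-coding starts, the median was 17 (quartiles 6 and 26), and 34.1% of them held as many as XRN1 or more, 16.1% as many as STXBP5 or more. CENPQ held 19 over its full 250 bases, with a G and C content of 64.8%, and 46.4% of starts held as many or more. Of the members without a peak at the start, CD2AP had 32 CG dinucleotides in its 250 bases and CNTNAP2 had 12. As many or more were held by 12.2% of starts for CD2AP and 64.5% for CNTNAP2. The 95 protein-coding starts that any TASOR KO peak covered had a median of 16. CG, which reads the same on both strands, was counted as a description of these windows.

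CD2AP encodes an adaptor protein that links membrane receptors to the actin cytoskeleton and is known for its part in the filtration slit of the kidney. The gene (gene ID 23607) spans chr6:47477789-47627263 on the plus strand, 149 kb. Both of its peaks were narrow and weak. The TASOR KO peak, chr6:47507122-47507933, was 812 bp wide (fold 3.06, −log10 q 0.43, rank 348 of 427) and was centred at 19.9% of the gene's length. In TASOR2 KO the peak, chr6:47547576-47548524, was 949 bp wide (fold 3.52, −log10 q 0.76, rank 212 of 264) and was centred at 47.0%. The lists were 39.6 kb apart in CD2AP, and neither had another peak within 500 kb of the gene.

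CNTNAP2 encodes a cell adhesion protein of the neurexin family that clusters potassium channels on axons. The gene (gene ID 26047) spans chr7:146116801-148420998 on the plus strand. At 2.3 Mb it was at rank 2 of the annotated protein-coding genes by length, which gives it more room for peaks of either list than any other member. It held 9 TASOR KO peaks and 1 TASOR2 KO peak. Of the 9 peaks, 2 had a q as small as those of the TASOR2 KO list, so at a common q limit the counts were 2 and 1. The TASOR KO peaks were 1054 to 5340 bp wide and were centred between 4.76% and 71.2% of the gene's length from the start. The nearest was 108 kb from the start. The strongest of them, chr7:146991796-146993990, had a width of 2195 bp, a fold of 3.43, a −log10 q of 0.88 and rank 192 of 427. The weakest, chr7:146225131-146227684, was 2554 bp wide with a fold of 3.0, a −log10 q of 0.40 and rank 399.

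Some of the CNTNAP2 peaks lay close together. A peak at chr7:147292054-147293107 was followed after 2.50 kb by one at chr7:147295612-147297190. Another at chr7:147399779-147405118 was followed after 6.44 kb by one at chr7:147411559-147415261. The other 6 gaps between neighbouring TASOR KO peaks ran from 103 to 342 kb. The TASOR2 KO peak, chr7:147873350-147875450, lay beyond all of them, at 76.3% of the gene's length (2101 bp, fold 3.72, −log10 q 0.93, rank 163 of 264), 115 kb from the last TASOR KO peak, or 879 kb from the last that met the common q limit. Upstream of CNTNAP2 the lists differed in the other direction. Between 147 and 282 kb before the start lay 5 TASOR2 KO peaks and 0 TASOR KO peaks, in no annotated gene. The strongest of the 5, chr7:145861581-145863833, was 2253 bp wide, with a fold of 4.2, a −log10 q of 2.0 and rank 21 of 264.

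CNTNAP2 had 3.91 TASOR KO peaks per Mb of body, against 0.565 per Mb over the annotated span of chromosome 7. Over all chromosomes the rate was 0.138. The chromosome 7 rate includes the peaks of CNTNAP2 and was not computed at the common q limit, where CNTNAP2 had 0.868. Its 1 TASOR2 KO peak, the fewest the rule admits, gave 0.434 per Mb, against 0.276 on chromosome 7 and 0.0855 over all chromosomes. These peaks chose the gene, so its rates are a description. The 69 protein-coding genes over 1 Mb held 24 TASOR KO peaks in 95.8 Mb of body, or 0.251 per Mb (6 peaks, 0.0627 per Mb, at the common q limit). Without CNTNAP2 the 68 other genes held 15 in 93.5 Mb, or 0.161 per Mb. Of these 68 genes, 9 had a TASOR KO peak and 0 had a TASOR2 KO peak. NRG3, a growth factor gene, had 4 peaks (3.6 per Mb) and PTPRN2 had 3 (2.86 per Mb), rates close to that of CNTNAP2. At the common q limit NRG3 had 0 peaks and PTPRN2 had 1. PCDH15 had 2 peaks (1.10 per Mb) and the other 6 genes 1 each. Those with the strongest peaks were DMD, which encodes dystrophin (rank 59), PTPRN2 (rank 106), the scaffold genes DLG2 (rank 208) and MAGI2 (rank 235), and NRG3 (rank 271). PCDH15 and CDH18, which encode cadherins, CNTN5 and CTNNA3 had peaks at ranks 281, 348, 409 and 410. The TASOR KO list had a peak in 10 of the 69 genes over 1 Mb (14.5%), including CNTNAP2, and in 61 of 13230 genes of up to 50 kb outside the zinc finger families (0.461%). For TASOR2 KO the counts were 1 of 69 (1.45%), that 1 being CNTNAP2 itself, and 32 of 13230 (0.242%). Since the rule chose CNTNAP2 by its peaks, the shares without it are 9 of 68 (13.2%) for TASOR KO and 0 of 68 for TASOR2 KO. At the common q limit 5 of the 69 genes had a TASOR KO peak and 1 had a TASOR2 KO peak, with CNTNAP2 in both counts. The genes of up to 50 kb were not counted at that limit. Outside the zinc finger families 154 of 19353 genes (0.796%) had a TASOR KO peak and 90 (0.465%) a TASOR2 KO peak. Of the 1921 such genes of 100 to 200 kb, XRN1, CD2AP and STXBP5 among them, 31 (1.61%) had a TASOR KO peak and 23 (1.2%) a TASOR2 KO peak. Peaks of both lists were found in 0.156% of that class. For genes of 200 to 1000 kb the shares were 2.21% for TASOR KO and 1.07% for TASOR2 KO. The part of gene length in these shares was not tested, and they were not compared further.

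The deposited lists hold only part of the numbered calls. The 427 TASOR KO peaks carried numbers from 1612 to 13397, and the 264 TASOR2 KO peaks numbers from 1 to 1512. This bears on every comparison of the lists, and on the number of peaks in CNTNAP2. Call numbers rose with position along each chromosome in both lists. The 9 TASOR KO peaks of CNTNAP2 carried numbers from 12524 to 12593, a run of 70, of which 61 were not in the list. In TASOR2 KO, the 2 peaks of XRN1 were numbered 1040 and 1041 and the 2 of STXBP5 1224 and 1225, with no number between them. The sources used here do not say how the calls were selected, and the number of peaks in CNTNAP2 cannot be read as the number of binding sites.

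**Figure D2:**
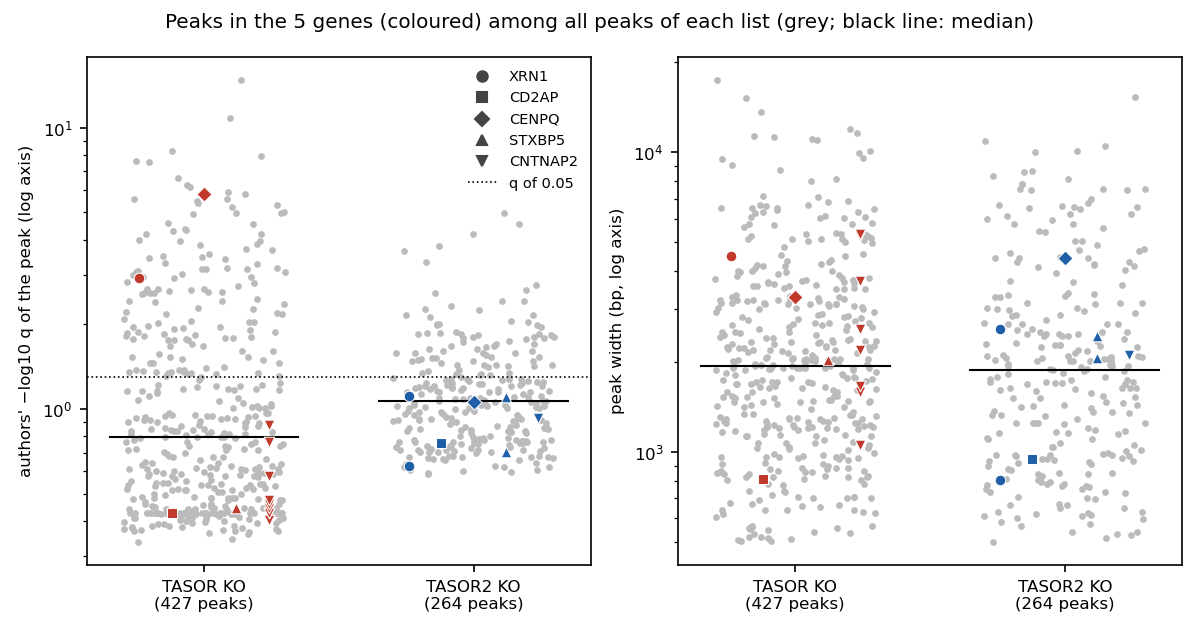
The authors' −log10 q (left) and the width in bp (right) of every peak, on log axes, with TASOR KO left of TASOR2 KO. Grey points are all 427 and 264 peaks, black lines their medians, coloured symbols the peaks in the 5 genes and the dotted line a q of 0.05. The TASOR KO peaks at CENPQ and XRN1 lie above the dotted line and no TASOR2 KO peak of these genes does.

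In strength the members were spread through the TASOR KO list and sat in the middle and lower part of the TASOR2 KO list. The 13 TASOR KO peaks ranked from 11 to 399 of 427 (median 323), with folds of 2.93 to 5.26. The 7 TASOR2 KO peaks ranked from 122 to 254 of 264 (median 163), with folds of 3.51 to 4.06. Most of the low TASOR KO ranks came from CNTNAP2, and the 4 peaks of the other genes had a median rank of 194. Peaks to rank 138 in TASOR KO and to rank 79 in TASOR2 KO (32.3% and 29.9% of each list) had a q of 0.05 or less. The smallest q in these genes was 1.62e-06 at CENPQ for the TASOR KO list and 0.0774 at XRN1 for the TASOR2 KO list. Folds and q values are the authors' own and depend on each library, so peaks were ranked only within a list. The q limit of 0.05 and the common q limit are exceptions, since each was applied to both lists. Depth per library is not given in the lists and is unknown.

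The member peaks were neither the narrowest nor the widest of their lists, whose widths ran from 504 to 17390 bp in TASOR KO and from 501 to 15317 bp in TASOR2 KO. TASOR KO peaks in the 5 genes were 812 to 5340 bp wide (median 2554 bp), against a median of 1929 bp over all TASOR KO peaks, and 9 of 13 were wider than that median. TASOR2 KO peaks were 806 to 4437 bp wide (median 2101 bp), against 1881.5 bp over the list, and 5 of 7 were wider. With the strongest peak of each gene alone, the TASOR KO median was 2195 bp and the TASOR2 KO median 2101 bp. Peaks under 1000 bp were found in CD2AP, in both lists, and in XRN1, where the weaker TASOR2 KO peak was 806 bp wide.

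The contrast at the transcription start was not limited to the members. Starts were known for 15842 of the 20037 protein-coding genes, on chromosomes that held 416 TASOR KO and 254 TASOR2 KO peaks. A start was covered by 85 TASOR KO peaks (20.4%, exact binomial 95% interval 16.7 to 24.6) and by 1 TASOR2 KO peak (0.394%, 0.00997 to 2.17), that of OPN1SW, a gene chosen after its value was seen. When the q had to be 0.05 or less, the counts were 53 of 133 (39.8%) and 1 of 74 (1.35%). With peaks extended by 5 kb, 26% and 3.94% reached a start. Outside the zinc finger families, a peak of the same list covered the start of 58 of 129 genes with a TASOR KO body peak (45.0%, 36.2 to 54.0) and of 1 of 80 with a TASOR2 KO body peak (1.25%, 0.0316 to 6.77). The members' counts, 3 of 5 and 0 of 5, are among these. Intervals cover counting error only and treat peaks as independent, and they compare 2 lists rather than genotypes. The share a list has at starts also depends on the unstated selection of its calls.

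**Figure D3:**
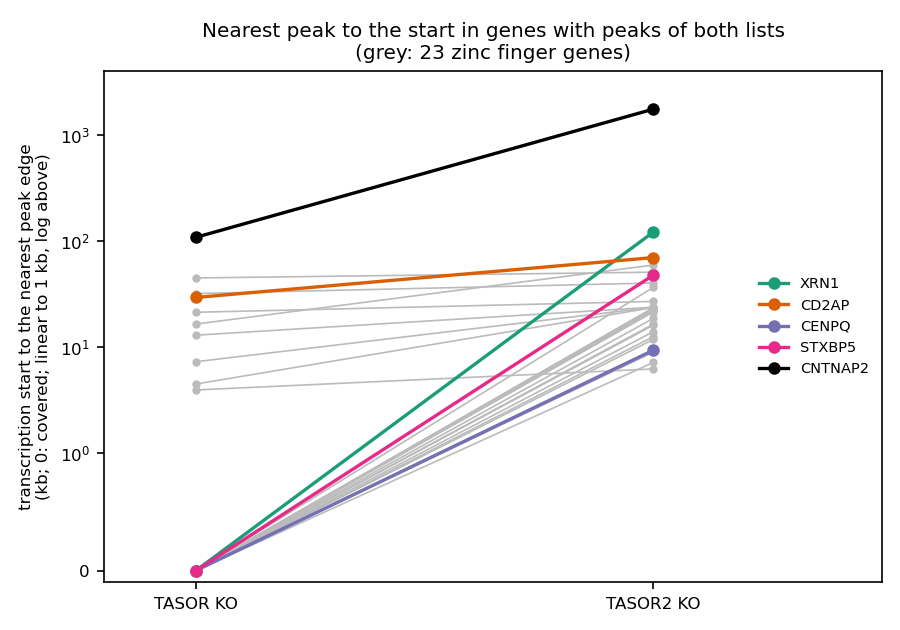
Distance in kb from the transcription start to the nearest edge of a peak, TASOR KO at left and TASOR2 KO at right, joined for each gene, on an axis that is linear to 1 kb and logarithmic above, with 0 for a covered start. Coloured lines are the 5 genes and grey lines the 23 zinc finger genes with a known start. Every line ends higher at TASOR2 KO.

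Zinc finger genes with peaks of both lists had the same order along the gene. Of these 26 genes 23 had a known start, and a TASOR KO peak covered it in 15 and a TASOR2 KO peak in 0. The nearest TASOR KO peak was closer to the start than the nearest TASOR2 KO peak in 23 of 23, as in 5 of 5 members. These genes are not all separate observations, since 1 TASOR KO peak of 2346 bp covered the starts of both ZSCAN32 and ZNF174. Where the sets parted was the far end. A TASOR2 KO peak lay within 5 kb of the transcript end in 0 of 5 members and in 19 of 23 zinc finger genes, and the median distance from the transcript end was 78.7 kb in the members and 1.49 kb in the zinc finger genes. The member nearest to this pattern was XRN1, with 10.7 kb between its TASOR2 KO peak and the transcript end. Members were longer, with a median of 149 kb against 27.8 kb, and the part of length in this difference was not tested. Both sets were chosen by the same peaks, so no test was made between them.

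By the median, distances between the lists were larger in kb and smaller as a share of the gene in the members, but the ranges overlapped. The gap had a median of 46.8 kb (6.32 to 117) in the 5 members and 15.2 kb (0.204 to 54.7) in the 26 zinc finger genes. As a share of gene length the medians were 25.1% (4.97 to 82.8) and 55.5% (0.709 to 93.4). The zinc finger genes with the smallest gaps were ZNF480 (0.204 kb), ZNF792 (0.693 kb) and ZNF75A (1.61 kb), and those with the largest were ZNF721 (54.7 kb), ZNF107 (34.8 kb) and ZNF69 (25.8 kb). The best TASOR KO peak of a gene had a median rank of 192 in the members and 137 in the zinc finger genes, and the best TASOR2 KO peak 135 and 124. A q of 0.05 or less in both lists was found in 0 of 5 members and 4 of 26 zinc finger genes. Chromosome 19 carried 0 of the members and 17 of the zinc finger genes. Of the members 3 lay on chromosome 6, with CD2AP and CENPQ 1.84 Mb apart and STXBP5 97.7 Mb further along.

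**Figure D4:**
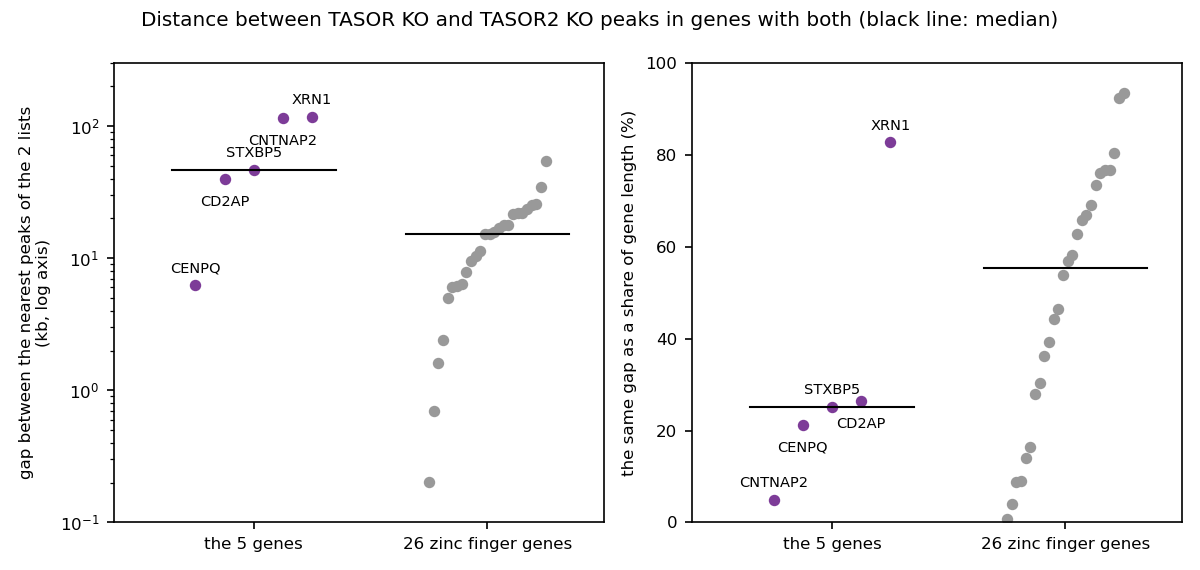
Gap between the nearest edges of a TASOR KO and a TASOR2 KO peak in the 5 genes (left in each panel) and in the 26 zinc finger genes (right), in kb on a log axis and as a percentage of gene length. Points are genes and black lines medians, 46.8 and 15.2 kb at left and 25.1% and 55.5% at right.

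Just outside the rule were 4 genes, of which ATR and MMUT adjoin a member. The smallest overlap that admitted a member was that of the STXBP5 TASOR KO peak, with 757 of its 2028 bp in the body. ATR, with a TASOR2 KO peak in its body, missed the rule by 840 bp, the distance from its body to the TASOR KO peak at the start of XRN1. TIGD7 had a TASOR KO peak and was 2.19 kb from a TASOR2 KO peak that lay in ZNF263. PIK3CB, which encodes a catalytic subunit of phosphoinositide kinase, had a TASOR KO peak and was 3.05 kb from a TASOR2 KO peak. MMUT shared the TASOR KO peak of CENPQ and was 9.43 kb from the TASOR2 KO peak inside CENPQ. No other gene outside the zinc finger families had a body peak of 1 list and a peak of the other within 10 kb.

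Peaks in the partners of the member proteins were counted beside the shares over all protein-coding genes outside the zinc finger families. Those shares were 0.796% for the TASOR KO list and 0.465% for the TASOR2 KO list. Groups of 30 to 46 genes are too small for counts of 0 or 1 to be read against such shares. None of 45 genes of mRNA decapping, deadenylation and decay, the pathway of XRN1, carried a body peak in either list. The same held for 46 genes of syntaxin-binding and SNARE proteins, the partners of STXBP5. Of 30 genes of CD2AP partners and slit diaphragm proteins, MAGI2 had a TASOR KO peak (3.33%, fold 3.42, −log10 q 0.69) and 0 had a TASOR2 KO peak. Of 34 annotated centromere and kinetochore genes beside CENPQ, 0 had a TASOR KO peak and CENPF, whose product binds kinetochores and microtubules, had 2 TASOR2 KO peaks (2.94% of genes). The stronger CENPF peak, 2666 bp wide with a fold of 4.09, a −log10 q of 1.59 and rank 50, did not cover the start.

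Of 26 genes of contactins, neurexins and channel-clustering proteins, the partners of CNTNAP2, 3 had a TASOR KO peak (11.5%) and 0 had a TASOR2 KO peak. DLG2, a scaffold gene, had the strongest of them (1633 bp, −log10 q 0.82, rank 208). The contactin gene CNTN4 had 2 peaks, the stronger 1036 bp wide with a −log10 q of 0.43 and rank 348. CNTN5 had 1 peak of 1830 bp with a −log10 q of 0.38 and rank 409. At the common q limit CNTN4 and CNTN5 had 0 peaks and DLG2 had 1. DLG2 and CNTN5 are also among the genes over 1 Mb counted above. All 3 genes are long, the median of this group being 263 kb, and none of these peaks covered a start. The background shares given above, 0.796% for the TASOR KO list and 0.465% for the TASOR2 KO list, apply to these counts, and gene length moves with them. CNTN4, at 959 kb, is in the class of 200 to 1000 kb, with a TASOR KO share of 2.21%. DLG2 and CNTN5 are in the class over 1 Mb, with a share of 14.5%, or 13.2% without CNTNAP2.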

How the data were processed

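MPP8 ChIP-seq peak lists of 2 samples were used, TASOR KO and TASOR2 KO, grouped by their titles. Per the labels' protocols, cells were fixed with 1% formaldehyde for 10 min, and ChIP started from 80 µg of human chromatin with a mouse spike-in of 1 in 40. The submitters' processing notes name MACS2, deepTools and Bowtie2 2.3.5.1, and the builds hg38 and mm9. For the control, the thresholds and the use of the spike-in nothing is stated in the sources used here. Peaks were deposited down to a q of 0.460 for TASOR KO but 0.258 for TASOR2 KO, so counts and ranks of the lists are not on the same footing. Their names carry the tags bc0.5 and bc0.3, whose numbers lie above these q values, and no meaning of the tags is stated. The deposited lists have 9 columns and no header, and were read in the MACS2 order for broad peaks. The authors' fold enrichment is a ratio, −log10 p and −log10 q are per peak, and the deposited score equals the whole part of 10 times −log10 q. Peaks were called per library.

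Coordinates are 1-based. Gene bodies came from the RefSeq gene table and starts, strands and promoter sequences from the RefSeq promoter table of GRCh38.p14. A gap is the number of bases between nearest peak edges, and ranks follow −log10 q. Zinc finger families were taken by symbol (ZNF, ZSCAN, ZKSCAN, ZFP, ZIM, ZIK, ZBTB, ZXD, ZFX, ZFY, PRDM or ZC at its beginning). Named genes are the members, genes sharing their peaks, up to 8 genes with a peak per partner list by rank, the near misses and the 3 zinc finger genes with the smallest and the largest gap. CTNNA3, OPN1SW, ZSCAN32 and ZNF174 fall outside this rule and were chosen after their values were seen. The members and lists were chosen with earlier results of these data known. No sequence of repeats or exons was used. The overlap step was tested on simulated data against bedtools 2.31.1. Software was matplotlib 3.10.9, scipy 1.17.1, pandas 2.3.3 and numpy 2.4.6 under Python 3.11.15.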

Additional observations from a re-analysis of the deposited data

How the results depend on the processing

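The count of 5 genes depended on the weaker peaks. It was 0 with peaks at a q of 0.05 or less, 1 (XRN1) with the 213 and 132 highest-scoring peaks, 3 (XRN1, CENPQ and CNTNAP2) with equal numbers of peaks and 8 with bodies extended by 5 kb, where ATR, PIK3CB and TIGD7 joined. At a common q limit, added after seeing the data, it was 3 (XRN1, CENPQ and CNTNAP2), and the gap in CNTNAP2 was 879 kb. It was 6 with 1 kb (ATR joined), 4 by peak centre or by 50% of the peak inside (without STXBP5), 7 over all annotated genes and 6 with ZNF symbols alone as the excluded family (ZSCAN32 joined). Between peak centres the distances were 119.7 kb in XRN1, 40.5 kb in CD2AP, 10.2 kb in CENPQ, 49 kb in STXBP5 and 116 kb in CNTNAP2. Counting peaks outside the gene changed XRN1 alone, to 27.7 kb. By the authors' fold the member peaks had a median rank of 332 in the TASOR KO list and 197 in the TASOR2 KO list, and by score 192 and 135 with the strongest peak of each gene, where the TASOR KO median width was 2195 bp. At a q of 0.05 or less the TASOR KO counts were 0 for CD2AP partners, 0 for CNTNAP2 partners and 2 for other genes over 1 Mb. With the highest-scoring peaks they were 0, 1 and 3. The median gap of zinc finger genes was 21.8 kb at a q of 0.05 or less, from 4 genes. The share of TASOR KO peaks over a start was 28.7% with equal numbers of peaks, 28.9% at the common q limit and 23.8% with peaks extended by 1 kb, against 0.394% in TASOR2 KO under each. These start shares and the count without CNTNAP2 were added after seeing the data. The cause of these changes was not tested. No paired analysis was possible because there was 1 library of each knockout.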
